A study of Homo sapiens with 6 samples.

Results

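The genes described here encode the nuclear part of the oxidative phosphorylation system and were measured by RNA sequencing in 2 human prostate cancer cell lines. They were chosen by name and level. A row was taken when its symbol began with NDUFA, NDUFB, NDUFC, NDUFS, NDUFV, SDHA, SDHB, SDHC, SDHD, UQCR, COX4, COX5, COX6, COX7, COX8 or ATP5, when it was not a pseudogene name, and when its mean was at least 20 raw counts over the 6 libraries. Of 98 rows with such a name, 4 were pseudogenes (ATP5EP2, SDHAP1, SDHAP2 and SDHAP3) and 5 lay under the count minimum, which left 89 genes of 13885 tested and of 21512 rows in the table. By textbook membership, 37 encode subunits of complex I, 4 of complex II, 9 of complex III, 13 of complex IV and 16 of complex V. A further 6, named NDUFAF or SDHAF, encode assembly factors, and 4 were kept apart as other names (NDUFA4L2, ATP5S, ATP5SL and COX4NB). ATP5S and ATP5SL were also counted in the wider list of assembly factors and related genes used below. COX4NB is a gene of a membrane protein insertion complex that carries the prefix by its position beside COX4I1. NDUFA4 was counted with complex IV, where its protein is now placed. The 9 genes of complex III hold UQCRHL, which shares sequence with UQCRH. They lack the complex III subunit CYC1, whose symbol the name rule does not take.

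LNCaP is an established line that responds to androgen. BicR is named in the labels as a prostate cancer line, and the labels do not say how it was derived. Both were grown in medium with serum, kept for 3 days without phenol red in 2.5% charcoal-treated serum, which is poor in steroid hormones, and then treated for 24 h with the solvent ethanol, with the androgen dihydrotestosterone (DHT, 10 nM) or with the antiandrogen bicalutamide (1 µM). Each line and treatment had 1 library, so the 3 LNCaP and 3 BicR libraries differ in treatment, and differences between treatments within a line have no replicate check. The error of each test therefore rests on how far the difference of the lines changed from treatment to treatment. For each gene it was drawn toward the error of all genes (2 residual and 6.8 prior degrees of freedom). No source speaks of separate cultures, so variation between cultures was not measured, and part of that error may be technical.

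Total counts ran from 42162723 to 55917016 per library. Summed over 10 luminal prostate markers, levels were 3978 to 10200 CPM (CPM are counts relative to the scaled library size) in LNCaP, and the BicR range was 4357 to 13150 CPM. The 3 basal markers summed to at most 1.04 CPM, the 4 blood markers to at most 0.22 CPM and the 5 stromal markers to between 59.7 and 85.6 CPM. The LNCaP ethanol library stood apart in HSPA5, a chaperone of the endoplasmic reticulum, which took 0.79% of its counts and 0.131% to 0.164% of the others. Genes of the cytosolic ribosome made up 5.72% of LNCaP ethanol counts and 6.32% of LNCaP DHT counts; elsewhere they made up 3.80% to 4.03%.

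The respiratory chain sits in the inner mitochondrial membrane. Complex I takes electrons from NADH and complex II from succinate, ubiquinone carries them to complex III and cytochrome c to complex IV, which reduces oxygen. Complexes I, III and IV pump protons, and complex V, the ATP synthase, lets them flow back to make ATP. Most subunits are encoded in the nucleus and a few in mitochondrial DNA; the mitochondrially encoded subunits were not analysed here. The nuclear genes are short, and their promoters are known for sites of the factors NRF1, GABP (a factor of the ETS family) and YY1.

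The upstream 150 bases of 8 genes are printed as description, and no test of the lines used them. The first 5 passed the test of the lines and stand in order of the size of their difference, COX4I1 was the next by size of the difference and did not pass, NDUFS1 had the highest estimate, and ATP5A1 an estimate of almost 0. The sequences are RefSeq's (GRCh38.p14), read 5′ to 3′ on the gene's strand and ending at the base before an annotated start. NDUFS1 and ATP5A1 had 2 annotated starts each, and the sequence of the first listed is printed. Capitals mark matches on either strand to 4 strings, none of which contains another: GCGCANGCG (NRF1 core), CCGGAAG (ETS core), AAGATGGC (YY1 core) and GGGCGG (SP box).
NDUFA13 (chr19:19516075-19516224, plus strand): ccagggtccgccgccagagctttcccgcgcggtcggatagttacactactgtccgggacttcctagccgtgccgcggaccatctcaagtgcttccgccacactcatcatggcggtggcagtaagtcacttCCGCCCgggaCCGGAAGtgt
NDUFA3 (chr19:54102705-54102854, plus strand): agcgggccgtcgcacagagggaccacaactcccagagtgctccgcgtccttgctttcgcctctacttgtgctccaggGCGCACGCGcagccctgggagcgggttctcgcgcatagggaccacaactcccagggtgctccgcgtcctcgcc
NDUFA1 (chrX:119871682-119871831, plus strand): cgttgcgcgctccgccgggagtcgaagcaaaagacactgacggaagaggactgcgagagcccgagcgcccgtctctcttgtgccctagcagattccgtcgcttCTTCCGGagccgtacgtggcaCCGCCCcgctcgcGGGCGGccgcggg
NDUFA7 (chr19:8321376-8321525, minus strand): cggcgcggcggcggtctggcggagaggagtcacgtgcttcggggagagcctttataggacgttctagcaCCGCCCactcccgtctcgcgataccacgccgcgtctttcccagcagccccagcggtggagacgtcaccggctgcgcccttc
NDUFA11 (chr19:5903791-5903940, minus strand): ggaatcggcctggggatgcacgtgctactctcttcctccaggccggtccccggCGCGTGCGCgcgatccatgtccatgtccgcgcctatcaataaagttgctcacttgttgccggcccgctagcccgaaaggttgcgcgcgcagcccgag
COX4I1 (chr16:85799545-85799694, plus strand): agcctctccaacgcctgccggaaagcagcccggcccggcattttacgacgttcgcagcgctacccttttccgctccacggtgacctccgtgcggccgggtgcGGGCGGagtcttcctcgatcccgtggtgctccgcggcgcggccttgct
NDUFS1 (chr2:206159445-206159594, minus strand): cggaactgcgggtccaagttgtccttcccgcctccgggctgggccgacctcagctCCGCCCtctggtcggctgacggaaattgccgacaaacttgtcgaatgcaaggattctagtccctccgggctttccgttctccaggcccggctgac
ATP5A1 (chr18:46104228-46104377, minus strand): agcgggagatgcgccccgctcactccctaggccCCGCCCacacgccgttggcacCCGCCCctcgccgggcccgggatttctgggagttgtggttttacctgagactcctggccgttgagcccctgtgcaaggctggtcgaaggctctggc

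RefSeq's table held a promoter window (250 bases before to 50 after a start) for 74 of the 89 genes, 91 windows in all. The NRF1 core was in 24.2% of these windows and in 7.52% of all 35116 windows of the table. The ETS core was in 26.4% against 10.3%, the YY1 core in 14.3% against 2.89%, and the SP box in 60.4% against 45%. Per gene, with any window of a gene counted, the shares were 29.7% of the 74 and 16.8% of 10698 tested genes with a window for NRF1, 31.1% and 21.9% for ETS, 16.2% and 6.39% for YY1, and 62.2% and 76.1% for the SP box. A match is a run of letters and not a measured site. Of the 5 genes that passed the test of the lines, 2 held the NRF1 core (NDUFA3 and NDUFA11), 2 the ETS core (NDUFA13 and NDUFA1) and 2 the YY1 core just after the start (NDUFA3 and NDUFA7). The differences of the lines with and without a match were not tested. The median estimate, BicR minus LNCaP on the log2 scale, was -0.44 in the 22 genes with an NRF1 core and -0.36 in the 52 without, -0.39 and -0.37 for ETS (23 and 51 genes), -0.41 and -0.38 for YY1 (12 and 62 genes), and -0.36 and -0.42 for the SP box (46 and 28 genes).

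Per length, the catalytic head of the ATP synthase was the most abundant group. RPKM, the authors' count scaled to gene length and sequencing depth, is used for levels between genes. ATP5B, the catalytic beta subunit, had the highest mean over the 6 libraries, 517 RPKM, followed by ATP5E, the epsilon subunit, at 350 RPKM and ATP5A1, the alpha subunit, at 221 RPKM. The median of the 5 genes of the head was 221 RPKM, against 5.99 RPKM for all tested genes. Medians by complex were 89.4 RPKM for complex IV, 76.4 for complex III, 62 for complex V, 45.9 for complex I and 29.2 for complex II, and 8.87 RPKM for the assembly factors. RPKM carries no replicate error here, and the ranges of the complexes overlapped.

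**Figure D1:**
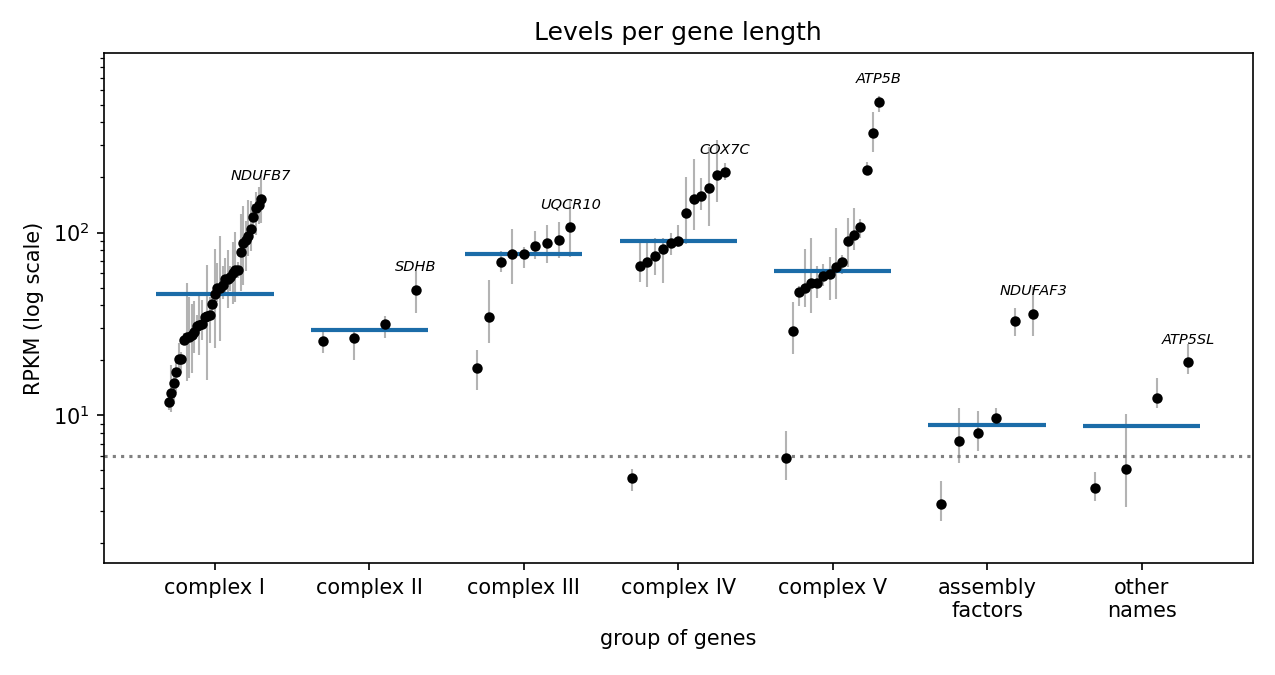
Mean RPKM of each of the 89 genes over 6 libraries (points, log scale), with the range over the libraries (grey lines) and the median of each group (blue bars); the dotted line is the median of all genes tested, 5.99 RPKM. ATP5B reaches 517 RPKM, and the complexes' medians run from 29.2 RPKM for complex II to 89.4 RPKM for complex IV.

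Within complex I the highest means were those of the accessory genes NDUFB7 (153 RPKM) and NDUFS5 (142 RPKM), and the lowest those of NDUFA10 (11.9 RPKM) and NDUFA5 (13.3 RPKM). In complex II, SDHB, the iron-sulfur subunit, had 48.5 RPKM, SDHC, a membrane anchor, 31.8 RPKM, SDHA, the flavoprotein, 26.6 RPKM and SDHD, the other anchor, 25.6 RPKM. In complex III the range ran from UQCRB (18.3 RPKM) and UQCR11 (34.6 RPKM) to the core gene UQCRC1 (91.3 RPKM) and UQCR10 (107 RPKM). In complex IV it ran from COX7B2 (4.53 RPKM) and COX6C (65.9 RPKM) to COX8A (206 RPKM) and COX7C (213 RPKM), and in complex V the lowest were ATP5L2 (5.84 RPKM) and ATP5G1 (28.8 RPKM). SDHA shares sequence with 3 pseudogenes of 486 to 1399 mean counts, ATP5E with ATP5EP2, UQCRH with UQCRHL and ATP5L with ATP5L2, so the authors' counting could have split reads between them and these values are uncertain.

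Both lines expressed the isoforms of most tissues. COX4I2, COX6A2 and COX7A1, the lung and muscle forms of complex IV subunits, had 0 counts in every library, which allows up to 0.0552 to 0.0715 CPM per library (3 counts, counting error only). COX6B2 and COX8C, known from testis, had means of 7.5 and 3.33 counts. The first gene inside the minimum, COX7B2, had a mean of 181 counts and 3.24 to 4.24 CPM, and its partner COX7B had 53.4 to 69.6 CPM. COX4I1 ran from 134 to 357 CPM, COX6A1 from 86.3 to 209 CPM, COX6B1 from 116 to 179 CPM, COX7A2 from 93.4 to 234 CPM and COX7A2L, which takes part in supercomplexes, from 134 to 189 CPM. The 3 genes for subunit c of the ATP synthase were all present per length, ATP5G2 at 97.3 RPKM, ATP5G3 at 59.5 RPKM and ATP5G1 at 28.8 RPKM.

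The genes of the set that passed as lower in BicR than in LNCaP were all in complex I, and none passed in the other direction. The median estimates of complexes III, IV and V, given below, were close to that of complex I. The comparison of the lines used an additive model over the 6 libraries (edgeR's quasi-likelihood test, Benjamini-Hochberg adjustment over 13885 genes, threshold 0.05). In this model the error comes from the disagreement of the treatments on the difference of the lines, shared in part over all genes. Lower in BicR were 5 of the 89 genes, and 2.84% of all tested genes were called lower; higher were 0 of 89, and 1.58% of all. All 5 encode accessory subunits of complex I, which surround the catalytic core: NDUFA13 (also known as GRIM-19), NDUFA3, NDUFA1, NDUFA7 and NDUFA11. At an unadjusted p under 0.05, 40 genes had lower and 1 had higher estimates, against 14.2% and 10.6% of all genes. Among the lower were 20 of 37 genes in complex I, 7 of 13 in complex IV, 5 of 9 in complex III and 5 of 16 in complex V. The median estimate over the 89 was -0.39, against -0.0037 over all tested genes, and 76 of 89 (85.4%) were negative against 50.4% of all. With length offsets 61 were negative (49.4% of all), with length and GC offsets 68 (48.4%) and with total counts only 68 (41.7%). In such bulk RNA, fewer cells of a type and less RNA per cell cannot be told apart, and with 1 line of each kind, the name of the line cannot be told apart from its culture history.

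NDUFA13 was at 64.7, 78.9 and 33.2 CPM in LNCaP (ethanol, DHT, bicalutamide) and at 24.5, 22.2 and 19.9 CPM in BicR in the same order. The groups did not overlap, and the LNCaP bicalutamide library was the nearest to BicR. The log2 fold change, BicR minus LNCaP, was -1.33 (SE 0.21, adjusted p = 0.0154 by edgeR).
NDUFA3 was at 29, 36.0 and 14.8 CPM in LNCaP and at 11.2, 8.51 and 11.4 CPM in BicR, with the same libraries highest (-1.28, SE 0.29, adjusted p = 0.0479 by edgeR). NDUFA1, on the X chromosome, was at 61.0, 52.3 and 26.8 CPM in LNCaP and at 24.4, 17.5 and 18.8 CPM in BicR (-1.14, SE 0.21, adjusted p = 0.0267 by edgeR). The gap between the LNCaP bicalutamide value and the highest BicR value was small in both, and neither gene's groups overlapped.
NDUFA7 was at 30.2, 43.3 and 16.2 CPM in LNCaP and at 14.8, 12.6 and 12 CPM in BicR (-1.08, SE 0.25, adjusted p = 0.0467 by edgeR). NDUFA11 was at 156, 154 and 71.9 CPM in LNCaP and at 66.6, 60.5 and 54.9 CPM in BicR (-0.99, SE 0.21, adjusted p = 0.0373 by edgeR). In all 5 genes LNCaP under ethanol and under DHT stood well above the other 4 libraries.

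**Figure D2:**
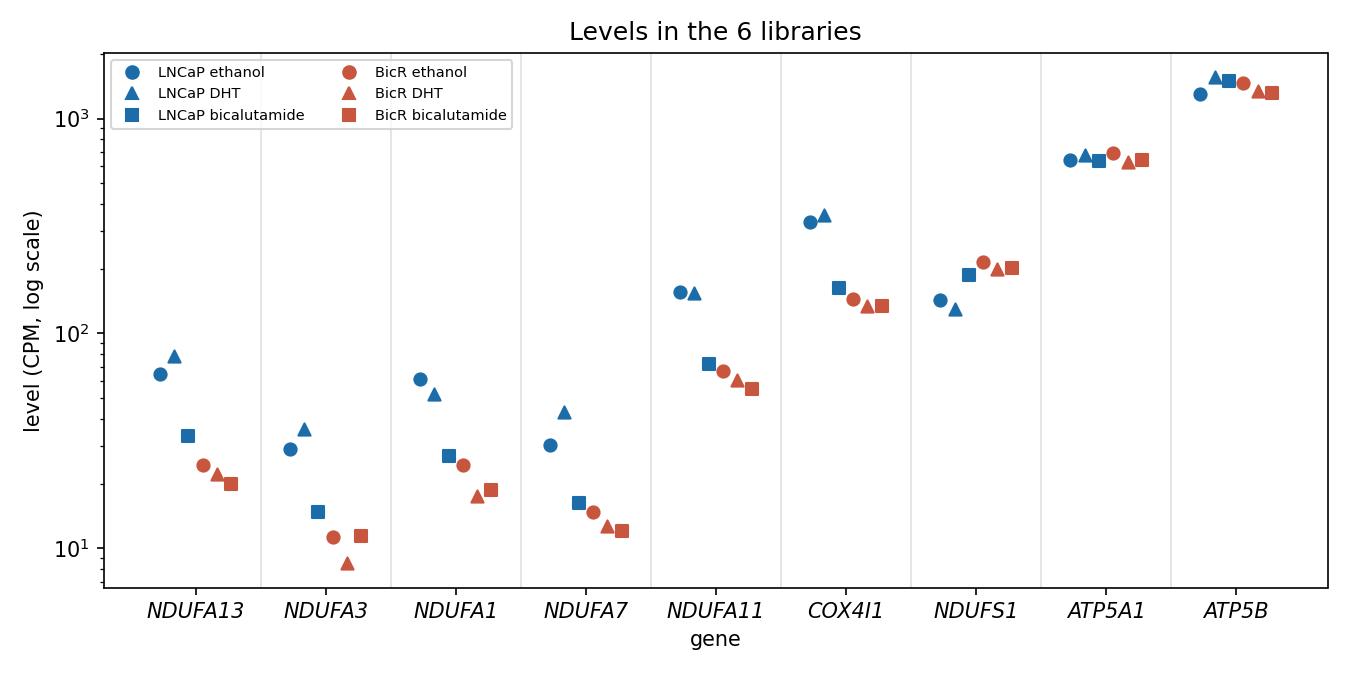
CPM (log scale) of 9 genes in each of the 6 libraries, coloured by line and shaped by treatment. In the 5 genes on the left and in COX4I1 the LNCaP ethanol and DHT libraries lie above the other 4; in NDUFS1 they are the lowest, and ATP5A1 and ATP5B are level.

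The calls rested on which treatments were in the comparison. Without the LNCaP or the BicR DHT library, 1 and 2 of the 89 genes passed (1.9% and 2.13% of all genes; medians -0.24), which is near the share of all genes. Without the LNCaP or the BicR ethanol library, 7 and 8 passed (3.19% and 3.38% of all; medians -0.36). Without either bicalutamide library, 0 genes of any kind passed by edgeR. The median was then -0.46, NDUFA13 was at -1.61, and 47 of the 89 were lower in BicR at an unadjusted p under 0.05 (15.1% and 15.2% of all). Each such fit kept 1 library for the treatment concerned, which then carried no information on the lines, and left 1 residual degree of freedom. By DESeq2, 24 of the 89 passed as lower (6.72% of all genes), and by limma on log2(RPKM + 1), 0 (0.072% of all), with 34 at an unadjusted p under 0.05 (10.7% of all).

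Counting which libraries overlapped, 37 of the 89 genes had every BicR library below every LNCaP library, as did 16.8% of all tested genes. Among the other lists described below, so did 10 of 19 genes of the citric acid cycle and 8 of 18 of glycolysis. It was 22 of 76 for the cytosolic ribosome, 15 of 77 for the mitochondrial ribosome and 4 of 24 for import and chaperones. The opposite order was found for 2 (NDUFS1 and COX7B2) and for 16.6% of all. By complex, every BicR library was the lower for 16 of 37 genes in complex I and 7 of 13 in complex IV. The same held for 4 of 9 in complex III, 4 of 16 in complex V and 2 of 4 in complex II. The LNCaP DHT library was the highest of 6 for 59 of the 89 genes, and the lowest was BicR bicalutamide for 34 and BicR DHT for 24. The same counts were not made over all tested genes, so whether the 89 differ from other genes in this was not tested.

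By complex, the median estimates of the lines were -0.44 for complex III (9 of 9 genes negative), -0.43 for complex I (31 of 37), -0.39 for complex V (14 of 16), -0.38 for complex IV (10 of 13) and -0.21 for complex II (3 of 4). Differences between the complexes were not tested, and their order moved with the processing. In complex III, 8 of 9 genes were negative with total counts only and 7 of 9 with offsets fitted on length. With offsets fitted on length and GC content the medians were -0.27 for complex I, -0.22 for complex II, -0.19 for complex III and -0.11 for complexes IV and V. Within complex I, the 7 catalytic core genes had a median of -0.36 and the 30 accessory genes -0.46. The core itself was split. NDUFS8, an iron-sulfur subunit, was at -0.84 (adjusted p = 0.0593 by edgeR), NDUFS7 at -0.76 and NDUFV1, the flavoprotein that binds NADH, at -0.58, none of which passed. NDUFS1, the largest core subunit, was at 144, 130 and 187 CPM in LNCaP and 216, 200 and 202 CPM in BicR, the highest estimate of the 89 genes at 0.44 (SE 0.17, adjusted p = 0.162 by edgeR).

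**Figure D3:**
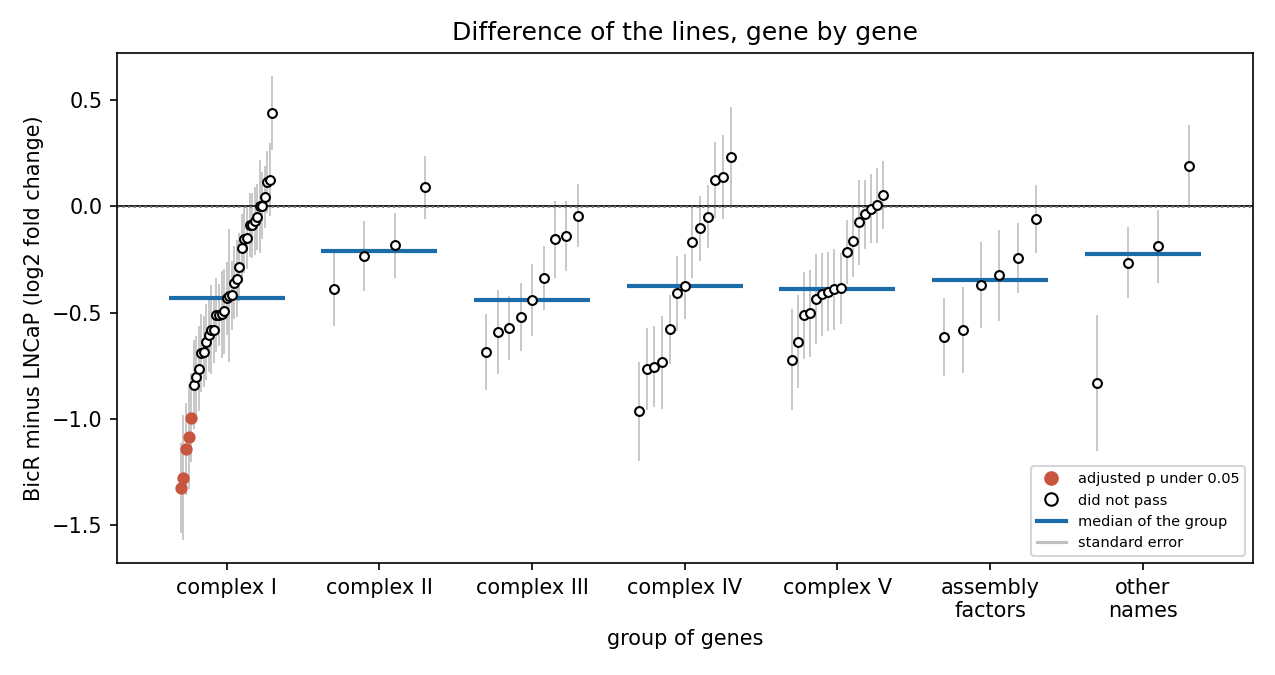
Estimates for BicR minus LNCaP (log2 fold change, points with standard errors) for the 89 genes by group, with the median of each group (blue bars); the dotted line is the median of all genes tested. The 5 filled points, all in complex I, passed at an adjusted p under 0.05, and all 9 genes of complex III lie below 0 (8 with total counts only, 7 with length offsets).

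In complex IV, COX4I1, a regulatory subunit, came nearest to the threshold. It was at 330, 357 and 162 CPM in LNCaP and at 144, 134 and 134 CPM in BicR, without overlap (-0.96, SE 0.23, adjusted p = 0.0526 by edgeR). COX7A2 (-0.76), COX8A (-0.75) and COX6A1 (-0.73) also lay lower in every BicR library and did not pass. COX7C (-0.10), COX7B (-0.05), NDUFA4 (0.12) and COX5B (0.14) had estimates near 0. In complex III, UQCR11 had -0.69, UQCR10 -0.59 and UQCRB -0.57, against -0.44 for UQCRC1 and -0.16 for UQCRFS1, the Rieske iron-sulfur protein.

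In the ATP synthase, the 5 head genes had a median estimate of -0.08 and the 11 others -0.40, a difference that was not tested. Outside the head, ATP5F1 (-0.01) and ATP5O (-0.04) had estimates closer to 0 than the median of the head. ATP5A1 stayed between 627 and 689 CPM in all 6 libraries (0.00, SE 0.18), ATP5B between 1304 and 1556 CPM (-0.08, SE 0.20) and ATP5C1 between 165 and 193 CPM (0.05, SE 0.16). The groups overlapped in all 3 genes. ATP5D, the delta subunit of the head, did not follow them, at 111, 161 and 83.5 CPM in LNCaP and 80.5, 66.4 and 73.6 CPM in BicR (-0.64, SE 0.22, adjusted p = 0.121 by edgeR). With offsets for gene length the median of the head changed sign, to 0.08, with total counts only it was 0.01, and with length and GC offsets -0.02 against -0.11 for all of complex V. Across the 6 libraries the median coefficient of variation was 7.44% for the head genes, 11.5% for complex II and 24.0% for complex I.

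The 4 complex II genes, which also serve the citric acid cycle, had a median of -0.21 (-0.22 with length and GC offsets, where it was second to that of complex I). SDHB was at -0.39 (SE 0.17), SDHA at -0.23, SDHC at -0.18 and SDHD at 0.09, and none passed. SDHD ran from 46.4 to 55.9 CPM over all 6 libraries, and its lowest value was in LNCaP under ethanol.

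Compared treatment by treatment, the gap between the lines was widest under DHT. The median difference of log2(CPM + 1), BicR minus LNCaP, was -0.57 under DHT, -0.34 under ethanol and -0.13 under bicalutamide, each from 1 library per line and without a test. At least 2-fold lower in BicR were 19 of the 89 genes under DHT (4.7% of all tested genes), 8 under ethanol (3.88%) and 0 under bicalutamide (1.27%). The ratio of NDUFA13 in BicR to LNCaP was 0.282 under DHT (95% counting interval 0.262 to 0.302), 0.379 under ethanol (0.355 to 0.404) and 0.599 under bicalutamide (0.553 to 0.648). NDUFA3 had the lowest ratio of the 89 under DHT, 0.237 (0.211 to 0.265), and 0.769 under bicalutamide (0.688 to 0.858). These intervals hold counting error and nothing of the variation between cultures. For 69 of the 89 genes (77.5%) the LNCaP bicalutamide library was nearer to BicR ethanol than to LNCaP ethanol, against 61.8% of all tested genes.

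Treatment contrasts over both lines passed no gene of the set. For DHT against ethanol 0 of 89 passed, with 0.158% of all genes called higher and 0.0072% lower, the median was 0.03, and 0 genes had an unadjusted p under 0.05 (2.74% of all higher, 2.89% lower). For bicalutamide against ethanol 0 of 89 passed, as did 0% of all genes in either direction; the median was -0.19, and 10 genes had an unadjusted p under 0.05, all with negative estimates (0.641% of all lower, 0.375% higher). For DHT against bicalutamide 0 of 89 passed, with 0.166% of all genes called higher and 0% lower; the median was 0.25, and 13 genes had an unadjusted p under 0.05, all positive (3.48% of all higher, 3.63% lower). DESeq2 also passed 0 of the 89 in each contrast. These 3 contrasts share libraries, and in this model the error comes from the disagreement of the lines, shared in part over all genes. The estimates at either end were -0.37 (NDUFA4L2), -0.34 (NDUFB4) and -0.34 (NDUFA1) to 0.29 (ATP5J2), 0.29 (NDUFA2) and 0.36 (NDUFC2) for DHT against ethanol. They were -0.76 (NDUFA1), -0.67 (NDUFA11) and -0.64 (NDUFB2) to 0.14 (NDUFA5), 0.15 (NDUFS1) and 0.33 (COX5B) for bicalutamide against ethanol. For DHT against bicalutamide they were -0.28 (NDUFS1), -0.14 (NDUFA5) and -0.14 (COX5B) to 0.70 (NDUFA13), 0.76 (NDUFA7) and 0.79 (ATP5I).

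Within LNCaP, levels were higher under DHT and lower under bicalutamide than under ethanol; within BicR they were slightly lower under both. There is no test of these differences. The genes took 1.02%, 1.19% and 0.956% of all counts in LNCaP (ethanol, DHT, bicalutamide) and 0.973%, 0.858% and 0.887% in BicR. In LNCaP the median difference of log2(CPM + 1) was 0.17 for DHT minus ethanol, with 22 of the 89 genes at least 25% higher (15.9% of all genes) and 2 at least 20% lower (14.8%). For bicalutamide minus ethanol it was -0.33, with 3 genes higher (21.3%) and 46 lower (20.7%), and for DHT minus bicalutamide 0.47, with 55 higher (21.8%) and 1, NDUFS1, lower (21.4%). Over all tested genes these medians were 0.01, 0.01 and -0.01.

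In BicR the medians were -0.09 for DHT minus ethanol, with 1 gene (NDUFC2) at least 25% higher (12.4% of all genes) and 6 at least 20% lower (12.6%), and -0.11 for bicalutamide minus ethanol, with 1 higher (NDUFB11; 1.41%) and 15 lower (1.67%). For DHT minus bicalutamide the median was 0.03, with 6 higher (11.4%) and 3 lower (12.6%), and its sign turned with the scaling. The BicR bicalutamide and ethanol libraries were close over all genes, and 10 of the 15 genes lower there were in complex I. The lowest were NDUFS7 (-0.70) and NDUFB1 (-0.61). NDUFS7 had 29.9 CPM under ethanol, 21.9 under DHT and 18 under bicalutamide, and NDUFB1 57.3, 46.3 and 37.3 CPM.

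**Figure D4:**
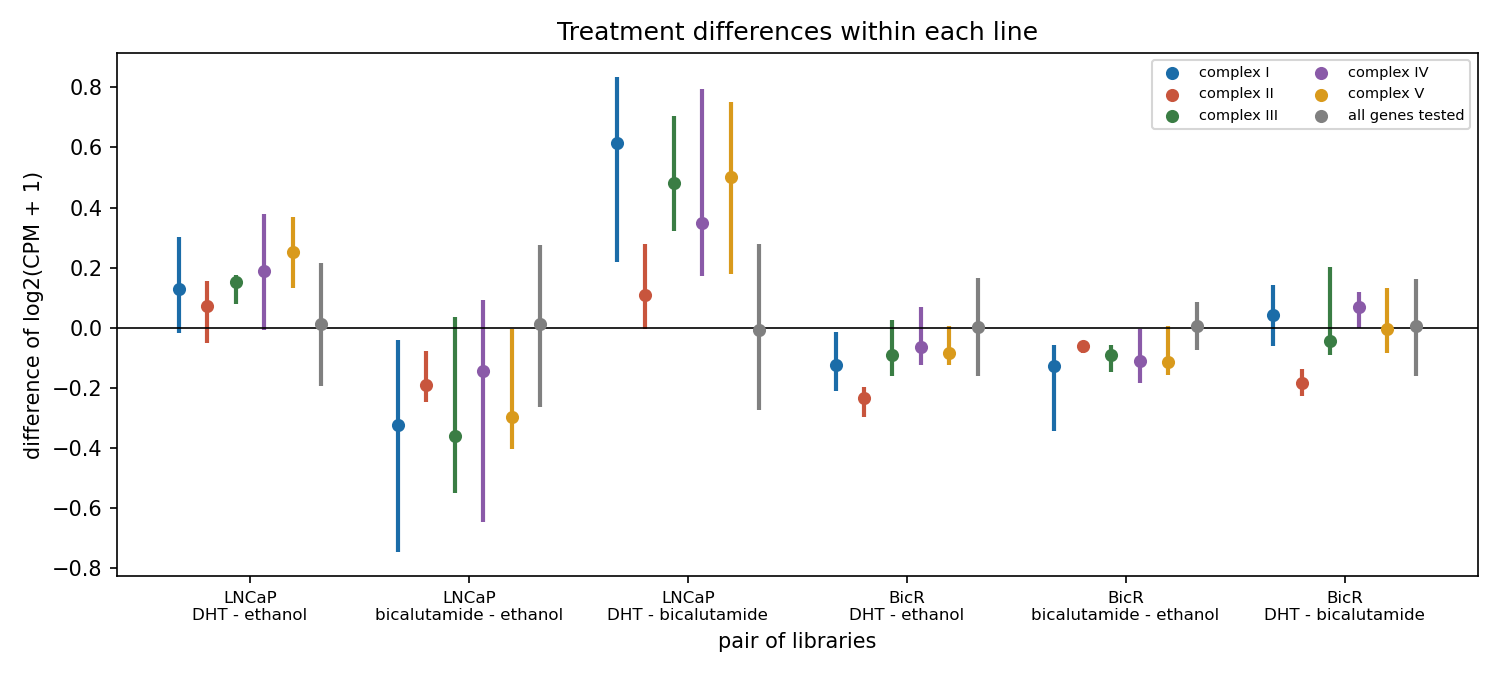
Median difference of log2(CPM + 1) (points) and interquartile range over genes (bars) for each complex and for all genes tested, in the 6 pairs of libraries within a line; the bars are spread between genes and not an error. In LNCaP, DHT minus bicalutamide is 0.61 for complex I and 0.11 for complex II, and in BicR the medians of the complexes run from -0.23 to 0.07.

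By complex, LNCaP DHT minus bicalutamide had medians of 0.61 for complex I, 0.50 for complex V, 0.48 for complex III, 0.35 for complex IV and 0.11 for complex II. LNCaP bicalutamide minus ethanol had -0.32 for complex I, -0.30 for complex V, -0.36 for complex III, -0.14 for complex IV and -0.19 for complex II. At least 2-fold lower under bicalutamide than under ethanol in LNCaP were 8 of the 89 genes (1.52% of all): NDUFA4L2, NDUFB11, NDUFA1, NDUFA11, ATP5I, NDUFS8, COX4I1 and COX7A2. At least 2-fold higher under DHT than under bicalutamide were 10 (1.58%), led by NDUFB11, ATP5I and NDUFA7. COX4I1 under bicalutamide stood at 0.491 times the ethanol value in LNCaP (95% counting interval 0.478 to 0.504) and at 0.927 in BicR (0.896 to 0.958). ATP5I, a small membrane subunit of the ATP synthase, was at 39.4, 51.0 and 18.8 CPM in LNCaP (ethanol, DHT, bicalutamide) and at 21.2, 21.3 and 18.9 CPM in BicR.

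Some genes had patterns of their own. NDUFB11, an X-linked accessory gene of complex I, was at 200, 239 and 83.8 CPM in LNCaP and at 101, 125 and 136 CPM in BicR, so that it was lowest under bicalutamide in LNCaP and highest under it in BicR. The ratio of bicalutamide to ethanol was 0.419 in LNCaP (95% counting interval 0.404 to 0.434) and 1.34 in BicR (1.29 to 1.39). NDUFA4L2, a gene known to be induced by hypoxia, was at 18.8, 10.5 and 6.75 CPM in LNCaP and at 5.36, 6.51 and 6.73 CPM in BicR, highest in LNCaP ethanol. COX5B was the reverse, at 41.7 CPM in LNCaP ethanol and 54.4 to 68.0 CPM in the other 5 libraries. NDUFA5 was at 34, 34.1 and 42.6 CPM in LNCaP and 25, 24.7 and 24 CPM in BicR, the lowest difference of the lines under bicalutamide (-0.80). The LNCaP ethanol library, in which NDUFA4L2 and COX5B lay apart, is the one with high HSPA5, and any part of that in these values was not tested.

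Gene length and base composition moved with these differences over all genes. Relative length, from counts divided by RPKM and the library total, put 73 of the 89 genes in the shortest of 5 equal classes of tested genes, with a median 0.29 times that of the median gene. In that class, the median estimate of the lines was -0.42 for the 73 and -0.19 for 2704 other genes; in the next it was -0.19 for 11 and -0.07 for the others. In LNCaP bicalutamide minus ethanol the medians in the shortest class were -0.39 and -0.22. GC content of the transcript ran against both. Across the 89 genes the Spearman correlation of GC content was -0.52 with the estimate of the lines (-0.30 over 13226 tested genes with a value) and -0.62 with LNCaP bicalutamide minus ethanol (-0.53). Genes are not independent, and these correlations, which share the 6 libraries, are descriptions.

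**Figure D5:**
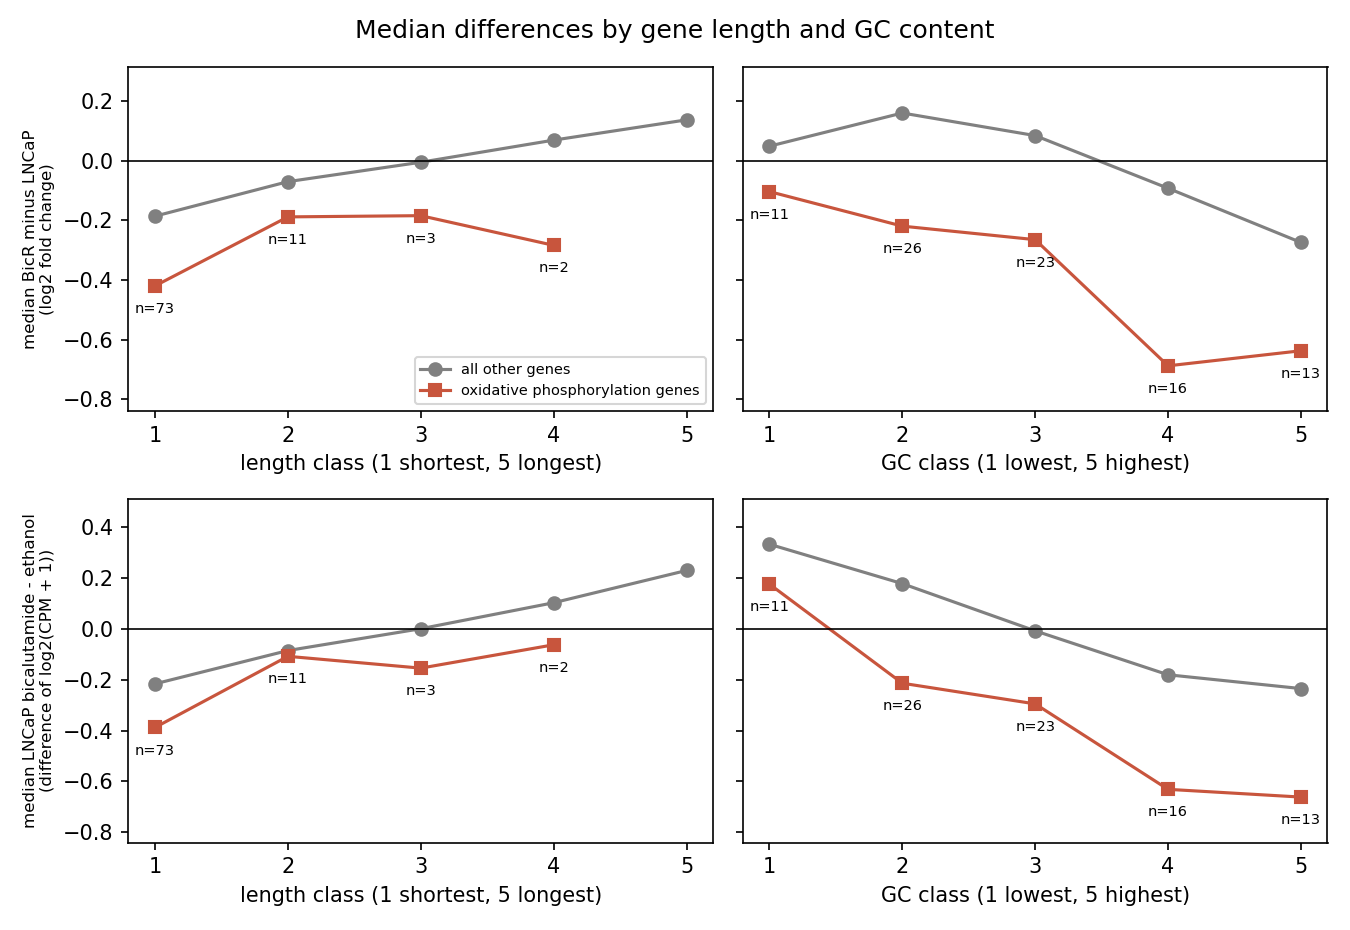
Median difference in 5 classes of gene length (left) and GC content (right) for the oxidative phosphorylation genes (squares, with their number) and all other tested genes (circles), for the lines (top) and for bicalutamide minus ethanol in LNCaP (bottom). The shortest and the 2 most GC-rich classes have negative medians in both sets; in the highest GC class the lines differ by -0.64 and -0.27.

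In the highest GC class the 13 members had a median estimate of the lines of -0.64 and the 2632 other genes -0.27, and in the lowest class 11 members had -0.10 and the others 0.05. With offsets fitted on length, the median over the 89 was -0.18, and with offsets on length and GC content, added after seeing the data, -0.23. Then 5 (3.54% of all genes) and 2 (2.64%) passed as lower, the latter near the share of all genes. With length offsets they were NDUFA13 (-1.07), NDUFA3 (-1.04), NDUFA1 (-0.88), NDUFA11 (-0.77) and UQCRB (-0.63), while NDUFA7 (-0.83, adjusted p = 0.0507 by edgeR) did not pass. With length and GC offsets they were NDUFA13 (-0.88, adjusted p = 0.0211 by edgeR) and NDUFA1 (-0.86, 0.0347). In LNCaP, DHT minus bicalutamide shrank from 0.47 to 0.14 less the median of genes of like length, and to 0.10 less smooth curves of length and GC content. BicR minus LNCaP under DHT shrank from -0.57 to -0.31 and -0.33, under ethanol from -0.34 to -0.19 and -0.17, and under bicalutamide, at -0.13, it was -0.12 and -0.13.

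Of the 5 genes that passed, 4 are on chromosome 19, as are 12 of the 89. The median estimate of these 12 was -0.66 and of the other 77 -0.34, and the transcripts' median GC content was 59.0% and 47.2%. Of the other tested genes with a known chromosome, 975 were on chromosome 19 (median -0.18) and 12236 elsewhere (median 0.006). Those of the shortest class had -0.41 on chromosome 19 and -0.17 elsewhere. The share of all called genes on chromosome 19 was not counted. Chromosome, length and GC content were not separated.

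Other lists of mitochondrial genes, and glycolysis, had median estimates of the lines smaller in size than the 89. Their genes were longer. Median relative length ran from 0.39 for the mitochondrial ribosome to 1.12 for the biogenesis regulators, against 0.29 for the 89. With length offsets the mitochondrial ribosome had a median of 0.02 and the 89 had -0.18. Whether the lists differ beyond length was not tested. A list of 16 genes outside the name rule had a median of -0.04, and 0 passed. It held cytochrome c (CYCS), coenzyme Q synthesis, other electron carriers and the complex III subunit cytochrome c1 (CYC1). At an unadjusted p under 0.05, 2 were lower and 1 higher, against 14.2% and 10.6% of all tested genes. The 39 assembly factors and related genes, some of them among the 89, had -0.06, and 0 passed (unadjusted, 6 lower and 1 higher). The 77 mitochondrial ribosomal proteins had -0.11, and 1, MRPL55 (-0.95, adjusted p = 0.0335 by edgeR), was lower (2.84% of all genes). Unadjusted, 17 of them were lower and 3 higher. The 24 genes of import and chaperones had -0.15 with 0 passing (unadjusted, 6 lower and 2 higher). The 19 of the citric acid cycle had -0.20 with 0 (5 and 0) and the 18 of glycolysis -0.32 with 0 (5 and 0). For the 20 regulators of mitochondrial biogenesis, among them NRF1, GABPA and YY1, the median was 0.08 with 0 passing (2 and 1).

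The cytosolic ribosome, whose genes are short too, lay close to the oxidative phosphorylation genes. Its 76 genes had a median estimate of the lines of -0.43, and 85.5% were negative. Passing as lower were 5 (2.84% of all genes), led by RPLP0 (-1.26), RPLP1 (-1.11) and RPL36 (-0.94). At an unadjusted p under 0.05, 34 were lower and 1 higher (14.2% and 10.6% of all). In LNCaP its median was 0.76 for DHT minus bicalutamide, and in BicR 0.07. No difference between these lists was tested.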

How the data were processed

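The values were raw counts for each gene symbol, deposited together with RPKM values of the authors, per the file headers. Reads were placed on hg19, per the submitters' processing notes; for the aligner, the annotation and strand, the sources used here give nothing. Libraries were sequenced on a SOLiD 3 Plus, per the labels' protocols. Of the rows, 0 had no gene name. A mean of 20 counts was the minimum for the test, which used TMM scaling and edgeR 4.0.16's quasi-likelihood test (R 4.3.3; line plus treatment, 2-sided, 2 residual and 6.8 prior degrees of freedom). Pairs of single libraries were compared as log2(CPM + 1), where changes of low genes come out too small, and counted when 25% higher, 20% lower or 2-fold apart; intervals of ratios are exact 95% ones given the sum of both counts. Length came from counts, RPKM and totals; GC content from the longest coding transcript of GENCODE v29, found for 89 of 89 genes; chromosomes from RefSeq. The fit was run on simulated counts with a known line effect and no treatment effect. The line effect there did not change between treatments, so that run does not check the error used here. Alternatives used DESeq2 1.42.0, limma 3.58.1, other scalings, filters and pseudocounts, offsets, and each library left out.

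Named genes were, by rule, those passing or with extreme estimates in a contrast (3 at either end), the 2 highest and lowest differences per pair among genes with at least 200 mean counts, the 2 highest and lowest RPKM per complex, isoform pairs and main catalytic subunits, and up to 3 passing genes per other list and direction. Members and lists were chosen with earlier results of these data known.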

Additional observations from a re-analysis of the deposited data

Results flagged for a closer look

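The DHT minus ethanol medians had opposite signs in the lines, which was not tested. Over the 89 genes the median difference of log2(CPM + 1) was 0.17 in LNCaP and -0.09 in BicR (BicR minus LNCaP -0.26). By complex, it was 0.13 and -0.12 for complex I (-0.25), 0.07 and -0.23 for complex II (-0.31), 0.15 and -0.09 for complex III (-0.24), 0.19 and -0.06 for complex IV (-0.25), and 0.25 and -0.08 for complex V (-0.33). DHT minus bicalutamide also had opposite signs for complex II (0.11 and -0.18, difference -0.29), complex III (0.48 and -0.04, difference -0.53) and complex V (0.50 and -0.004, difference -0.50). Each median rests on 1 library per line and treatment, and the last BicR value is almost 0.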

How the results depend on the processing

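Members lower in BicR numbered 5 by edgeR (2.84% of all genes), 10 with total counts only (3.72%), 16 with no low-count filter (4.63%), 24 by DESeq2 (6.72%), 0 by limma on log2(RPKM + 1) (0.072%), 2 with length and GC offsets (2.64%; added after seeing the data), and 0 to 8 with a library left out. The median for the lines, -0.39, was -0.18 with length offsets, -0.23 with length and GC offsets and -0.46 to -0.24 with a library left out. DHT against ethanol, 0.03, was 0.015 with DESeq2's size factors, 0.0149 by DESeq2, -0.02 by limma, -0.047 with length offsets, -0.049 with length and GC offsets and -0.12 to 0.18 with a library left out. Bicalutamide against ethanol, -0.19, was -0.12 with total counts only, -0.087 with length offsets, -0.071 with length and GC offsets and -0.40 to -0.053 with a library left out, when 0 to 1 member passed (NDUFA4L2 without BicR ethanol, 0.684% of all genes lower; ethanol is then 1 library, assumed to vary like the others). DHT against bicalutamide, 0.25, was 0.027 with length offsets, 0.037 with length and GC offsets and 0.056 to 0.41 with a library left out. Within LNCaP, less the median of like length and less length and GC curves, DHT minus ethanol was 0.044 and 0.066, bicalutamide minus ethanol -0.12 and -0.067 (-0.17 with total counts), and DHT minus bicalutamide 0.14 and 0.10. Within BicR, DHT minus ethanol was -0.17 with total counts and -0.20 on RPKM, bicalutamide minus ethanol -0.072 less length and GC curves, and DHT minus bicalutamide -0.036 with total counts, -0.060 on RPKM, -0.0047 less length and -0.037 less length and GC curves. Total counts alone moved the median of all genes by over 0.1 in LNCaP bicalutamide minus ethanol, to 0.15, and in BicR minus LNCaP under ethanol, to 0.17. No paired analysis was possible because the labels give no replicate numbers, beyond the treatment term, by which the fit already compares the lines within treatments. Counts per gene and library were at least 163, and variation between cultures was not measured. The cause of these changes was not tested.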
